A study of Mus musculus with 2 samples.

Results

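Mcpt8, Gzmb, Slc18a2 and Slpi are 4 genes of the content and control of the cytoplasmic granules of mast cells and basophils. They are 4 of 8139 gene symbols in a table of RNA sequencing values, and were chosen by name with the values in both libraries already known, so their differences between the libraries are given as a description, with no test. Mast cells had been grown from C57BL/6 bone marrow, and their RNA was sequenced as 1 library of wild type (WT) cells and 1 library of Tet2-/- cells, which lack an enzyme that oxidises 5-methylcytosine in DNA. Both cultures were grown from femur marrow with interleukin-3 at 10 ng/ml, stem cell factor at 5 ng/ml and 10% serum for 4 to 6 weeks, and cells of more than 97.5% purity for FcɛRI and c-Kit were used. Neither the age and number of the mice nor whether marrow was pooled is stated in the labels, and the Tet2-/- genotype is given without the design of the allele.

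Mast cell granules hold serine proteases bound to sulfated proteoglycan, together with histamine and serotonin. The amines are made in the cytosol and pumped into granules and vesicles by a vesicular monoamine transporter, which exchanges them for protons. Proteases are made as inactive precursors and are activated by removal of a short leader peptide, and secreted and cytosolic inhibitors limit their action once they leave the granule. Mcpt8 encodes mast cell protease 8, a serine protease that is widely used as a basophil marker in mice. Gzmb encodes granzyme B, a serine protease that cleaves after aspartate and is made by cytotoxic lymphocytes and by mast cells. Slc18a2 encodes the vesicular monoamine transporter VMAT2, and Slpi encodes secretory leukocyte protease inhibitor, which blocks elastase, cathepsin G and chymase.

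Values are RPKM, which divide the reads of a gene by its length and by the depth of the library. A gene model entered a count when its mean over both libraries was at least 1 RPKM, and it counted as higher or lower in Tet2-/- when its difference in log2(RPKM + 1) was at least 1, which is 2-fold on that scale. This is a rule of size and not a test. Ratios are Tet2-/- over WT in RPKM, with an exact Clopper-Pearson 95% interval from the estimated fragment numbers, which covers counting error only. There was 1 library per genotype and so no replicate, and a difference between the genotypes cannot be told apart from a difference between single cultures or mice. In a bulk library, more cells of a type and more RNA per cell cannot be told apart either.

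Depth, inferred from the spacing of low values, was 30900000 fragments for WT and 31800000 for Tet2-/-. The median log2 difference of the 2107 models past the filter was 0.01. Tet2 itself was not analysed here, and its value could not be used to check the genotype labels. The labelled cell type could be checked on 4 of 26 mast cell markers. Fcer1g, the gamma chain of Fc receptors, stood at 594 RPKM in WT and at 438 RPKM in Tet2-/-, the prostaglandin D synthase gene Hpgds 68.9 and 66.5 RPKM, and the transcription factor gene Mitf 31.3 and 30.9 RPKM. The fourth marker was Slc18a2 itself. The ratio of Fcer1g was 0.736 (0.714 to 0.760). All 4 markers had lower values in Tet2-/-, with a median log2 difference of -0.14. Without Slc18a2, which was chosen with its value known, the median was -0.05. Of the 4, 3 had an interval below 1, Slc18a2 included, where 23.6% of protein-coding genes past the filter had one. The ratio of Hpgds was 0.964 (0.932 to 0.996), and the interval of Mitf includes 1. Kit, Fcer1a and the tryptase genes were not analysed here.

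The DNA just upstream of each gene is shown because the genotypes differ in an enzyme that acts on methylated cytosine, and because the genes with a large difference between the libraries can be set beside those with a small one. All 4 genes matched RefSeq (build GRCm38.p6, the same assembly as mm10). Each run is written 5′ to 3′ on the strand of the gene and ends at its RefSeq start, except that of Mcpt8, which ends where an exon in GENCODE release M21 begins. Capitals mark matches on either strand to any of 9 motifs. These are GATA, the E-box CACGTG and its variant CATGTG, the AP-1 motif TGANTCA, the cyclic AMP element TGACGTCA, the STAT motif TTCNNNGAA, the C/EBP motif TTGCNNAA, the RUNX core TGTGGT and the TATA box TATAAA. The runs are chr14:56085274-56085447 on the minus strand for Mcpt8, chr14:56262335-56262584 on the minus strand for Gzmb, chr19:59260628-59260877 on the plus strand for Slc18a2 and chr2:164356508-164356757 on the minus strand for Slpi. The last of these lies in an intron of a longer annotated Slpi transcript, which starts further upstream.
Mcpt8: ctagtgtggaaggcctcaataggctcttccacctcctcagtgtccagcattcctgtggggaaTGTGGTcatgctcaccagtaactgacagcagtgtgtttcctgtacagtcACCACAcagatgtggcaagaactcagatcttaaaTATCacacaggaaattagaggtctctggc
Gzmb: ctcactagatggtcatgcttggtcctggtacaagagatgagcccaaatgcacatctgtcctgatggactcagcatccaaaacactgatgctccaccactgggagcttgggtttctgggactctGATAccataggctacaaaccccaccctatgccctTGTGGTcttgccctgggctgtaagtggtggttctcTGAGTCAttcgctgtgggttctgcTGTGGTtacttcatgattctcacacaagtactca
Slc18a2: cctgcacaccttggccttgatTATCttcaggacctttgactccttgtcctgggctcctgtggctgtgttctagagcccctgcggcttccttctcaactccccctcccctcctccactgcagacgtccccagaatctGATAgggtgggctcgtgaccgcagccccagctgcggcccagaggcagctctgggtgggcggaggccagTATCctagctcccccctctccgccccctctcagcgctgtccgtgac
Slpi: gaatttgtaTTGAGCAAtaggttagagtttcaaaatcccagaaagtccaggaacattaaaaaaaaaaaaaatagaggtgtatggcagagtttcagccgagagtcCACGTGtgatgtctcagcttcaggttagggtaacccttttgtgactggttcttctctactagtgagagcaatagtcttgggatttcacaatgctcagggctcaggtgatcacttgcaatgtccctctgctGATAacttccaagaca

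The runs differed in their CG pairs, the usual site of cytosine methylation. The 250 bases before the RefSeq start held 0 CG pairs in Mcpt8, 1 in Gzmb, 2 in Slpi and 9 in Slc18a2, against a median of 6 over 32851 promoters. So the 2 genes with the larger differences, Mcpt8 and Slpi, and 1 with a small difference, Gzmb, all had fewer CG pairs than the median promoter. The count for Slpi is for the RefSeq start only, and the start of its longer transcript was not examined. The 4 genes were chosen with their differences known, so nothing is read from these counts. GATA was found in all 4 runs and in 53.6% of promoters over 250 bases (44.9% over the 174 bases shown for Mcpt8). The RUNX core was found 2 times each in the runs of Mcpt8 and Gzmb, and is in 14.0% of promoters over 250 bases and 10.03% over 174. The run of Gzmb held the AP-1 motif, present in 6.75% of promoters. That of Slpi held the E-box CACGTG, present in 6.02%, and the C/EBP motif, present in 9.56%. In the runs shown no other listed motif matched and no matches overlapped, and a match is a description of letters and not a bound site. DNA methylation was not measured in these files.

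Of the 4 genes, Mcpt8 and Slpi were past 2-fold on the higher side in the Tet2-/- library and none on the lower side, while Gzmb and Slc18a2 lay within 2-fold. Among all 2107 models past the filter, 2.90% were higher and 1.61% lower by this rule. All 4 genes passed the filter. Because the genes were picked with this contrast in view, nothing is read from their count.

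**Figure D1:**
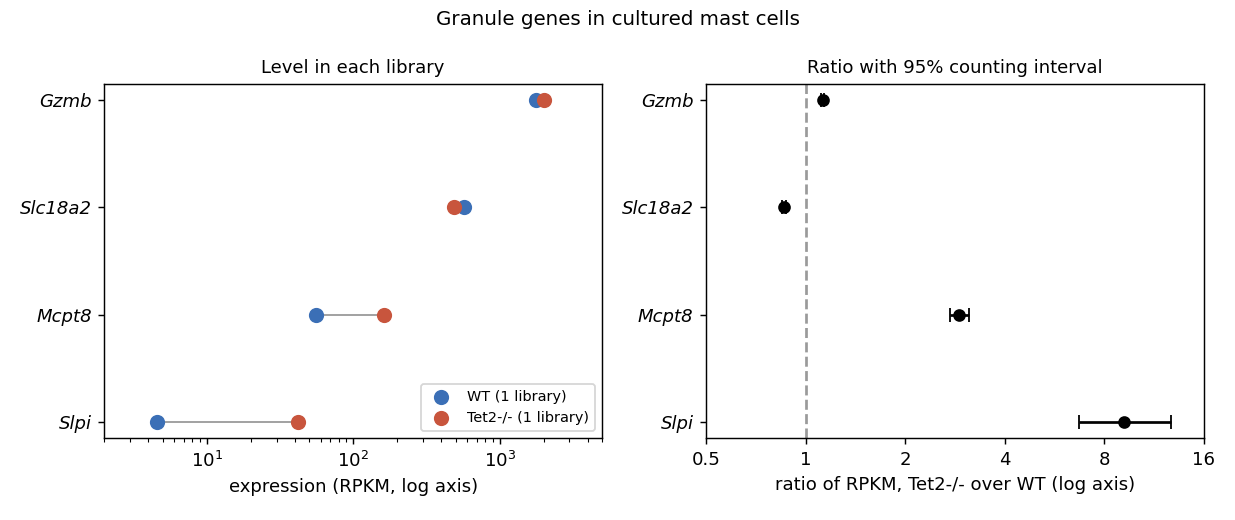
Left, RPKM (log axis) of the 4 granule genes in the WT library (blue) and the Tet2-/- library (red). Right, the ratio of Tet2-/- over WT (log axis), with bars for the 95% counting interval. Slpi (9.17) and Mcpt8 (2.91) lie far to the right of 1, and Gzmb (1.13) and Slc18a2 (0.859) close to it.

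Mcpt8 (ENSMUSG00000022157.8, chromosome 14, 56082166 to 56085273, minus strand, mm10) was at 56.1 RPKM in the WT library and at 163 RPKM in the Tet2-/- library. The Tet2-/- library was the higher one, with a ratio of 2.91 (2.72 to 3.12) and a log2 difference of 1.52. The values rest on an estimated 1155 and 3409 fragments over the coding transcript of 836 bases. By level, Mcpt8 was at rank 288 of 3742 listed protein-coding genes in WT and at rank 82 in Tet2-/-. Of the 236 protein-coding genes past the filter whose mean lay within 2-fold of that of Mcpt8, 2 were higher in Tet2-/- by 2-fold or more, Mcpt8 included, and 0 were lower.

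Gzmb (ENSMUSG00000015437.5, chromosome 14, 56258838 to 56262260, minus strand) had the highest level of the 4 genes in both libraries, 1770 RPKM in WT and 1994 RPKM in Tet2-/-. It was at rank 7 of the listed protein-coding genes in WT and at rank 8 in Tet2-/-. The ratio was 1.13 (1.12 to 1.14) and the log2 difference 0.17. The narrow interval comes from an estimated 69248 and 79654 fragments. Such an interval apart from 1 was common, as 51.8% of 1738 protein-coding genes had one, and 884 of the 2107 models past the filter had a larger log2 difference in size than Gzmb. None of the 15 protein-coding genes within 2-fold of the mean level of Gzmb was 2-fold apart between the libraries.

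The balance of the 2 proteases therefore differed between the libraries. Per length, the Mcpt8 value was 3.17% of the Gzmb value in WT and 8.19% in Tet2-/-. In RPKM, the Tet2-/- library exceeded WT by 107 for Mcpt8 and by 224 for Gzmb, so the gene with the smaller ratio had the larger absolute difference.

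Of 26 granule protease genes on a fixed list, 3 are in the table. The third, Mcpt9, a chymase family gene, had 0.597 and 0.686 RPKM, with a ratio of 1.15 (0.709 to 1.87) that includes 1. Mcpt8 and Gzmb, the 2 that passed the filter, had a median log2 difference of 0.85, and with Mcpt9 added the median was 0.17. Both were chosen with their values known, so nothing is read from these medians. The carboxypeptidase, tryptase and main chymase genes were not analysed here.

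Mcpt8 and Gzmb lie on the same strand of chromosome 14, 174 kb apart, in a cluster of related serine protease genes. Between them the annotation places 7 protein-coding genes, Ctsg, Gzmc, Gzmd, Gzme, Gzmf, Gzmg and Gzmn, of which 0 are in the table. Mcpt9 lies 51.7 kb from Mcpt8 on the side away from Gzmb. Beyond the cluster, the leukotriene B4 receptor gene Ltb4r1 had 6.22 RPKM in WT and 4.07 RPKM in Tet2-/-, with a ratio of 0.654 (0.531 to 0.804). Tm9sf1, with 46.8 and 45.5 RPKM, and Parp4, with 11.99 and 12.3 RPKM, had intervals that include 1. Cbln3 was below the filter, at 0.282 and 0.273 RPKM. Of 45 other protein-coding genes within 500 kb of Mcpt8, 6 are in the table, and of 29 around Gzmb, 5 are. Mcpt8 alone of these genes was past 2-fold, where 2.90% of all models past the filter were higher and 1.61% lower. Most of the region was thus not measured, and Mcpt8 was chosen with its value known, so nothing is read from this count.

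Related genes of such a cluster can share reads, so the transcripts were compared in words of 50 bases. None of the 787 words of Mcpt8 and none of the 1387 words of Gzmb occurs in an annotated transcript of another gene. The same held for the 1126 words of the Slpi transcripts. For Slc18a2, 52 of 3736 words (1.39%) are shared with Gm29261, an antisense RNA model that overlaps it by 524 bases and was not analysed here, and since the kit's strand setting is not stated their reads cannot be told apart. The microRNA models Mir6949 and Mir7678 lie inside Mcpt8 and Slpi and were not analysed here.

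**Figure D2:**
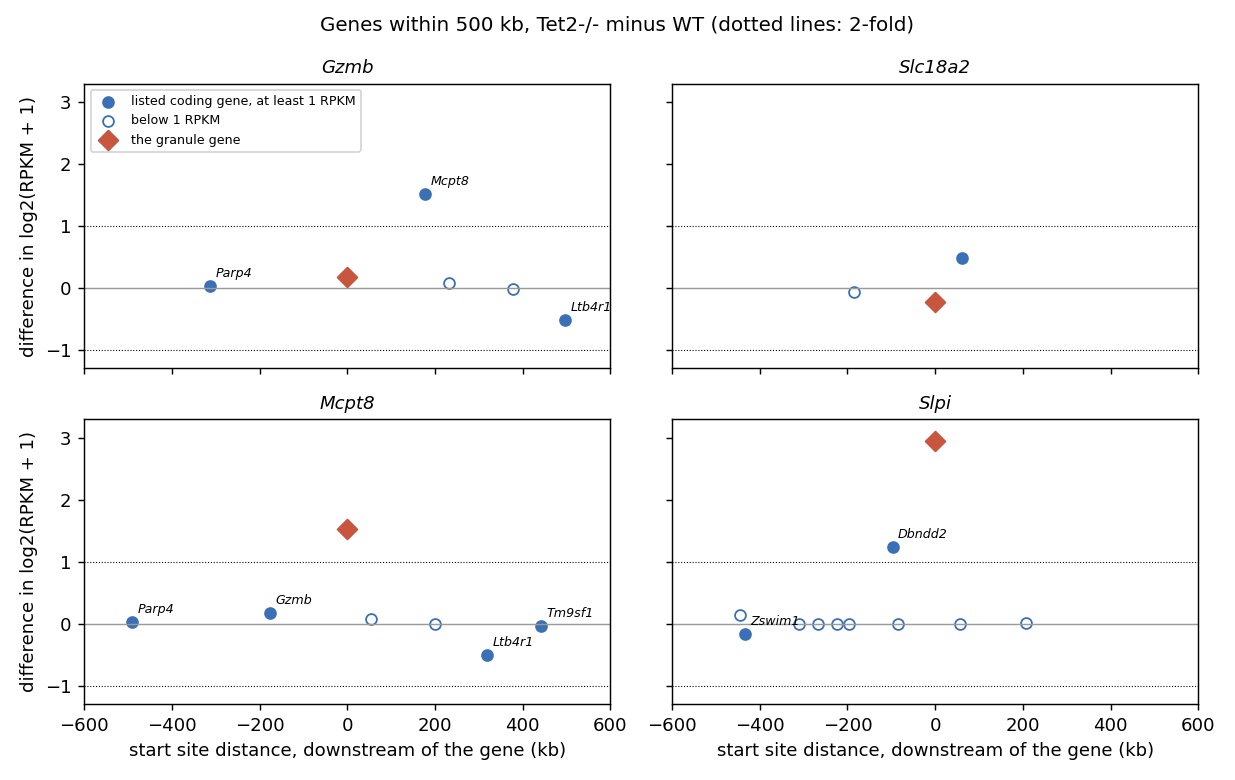
Difference in log2(RPKM + 1), Tet2-/- minus WT, of listed protein-coding genes within 500 kb of each granule gene (red diamond), against the distance between annotated start sites in kb, counted in the direction of transcription (for Slpi, from the start of its longest annotated extent). Filled circles passed the filter of 1 RPKM, open ones did not, and dotted lines mark 2-fold. Apart from Mcpt8 itself, which is also drawn around Gzmb, no listed gene around the 2 proteases is past 2-fold. Around Slpi 1 listed gene is, Dbndd2. Among all models past the filter, 2.90% were higher and 1.61% lower.

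Slc18a2 (ENSMUSG00000025094.8, chromosome 19, 59260896 to 59296012, plus strand) was at 572 RPKM in WT and at 491 RPKM in Tet2-/-. The WT library was the higher one, with a ratio of 0.859 (0.849 to 0.869) and a log2 difference of -0.22. An interval below 1 was found for 23.6% of protein-coding genes past the filter. The estimate of 63899 and 56330 fragments makes this interval as narrow as that of Gzmb. A larger log2 difference in size was found in 32.9% of models past the filter. Slc18a2 was the only one of the 4 genes with a lower value in Tet2-/-. It ranked 29 among protein-coding genes in WT and 34 in Tet2-/-, and was the highest of the 63 listed solute carrier genes in both libraries, ahead of the mitochondrial carrier gene Slc25a11 at 87.8 and 86.6 RPKM. Of the 25 solute carriers past the filter, 0 were past 2-fold in either direction, near the share over all models of 2.90% higher and 1.61% lower, and the median log2 difference was -0.002.

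Few other genes that make, move or break down amines could be measured. Of 26 on the list, 5 are in the table and 4 passed the filter, Slc18a2 included, with a median log2 difference of -0.13. Without Slc18a2 the median was -0.07. Of these 4, 0 were past 2-fold, which is near the share over all models (2.90% higher and 1.61% lower). Maob, which encodes the mitochondrial monoamine oxidase B, stood at 270.4 RPKM in WT and at 238 RPKM without Tet2, a ratio of 0.879 (0.860 to 0.897), close to the ratio of Slc18a2. Pts, an enzyme gene of the pathway to tetrahydrobiopterin, the cofactor of tryptophan hydroxylase, had 32.6 and 31.1 RPKM. Slc6a4, the plasma membrane serotonin transporter gene, had 1.83 and 1.84 RPKM. The intervals of Pts and Slc6a4 include 1. Hnmt, which encodes histamine N-methyltransferase, was listed at 0.01 in WT, a value read as no reads, and at 0.115 RPKM in Tet2-/-. The histidine decarboxylase gene Hdc and the tryptophan hydroxylase gene Tph1 were not analysed here, so the supply of amines has no value beside that of their transporter.

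Of the genes around Slc18a2, 2 of 10 protein-coding ones within 500 kb are in the table. Shtn1, a neuronal polarity gene, had 0.222 and 0.168 RPKM and did not pass the filter, and the other is a ribosomal protein pseudogene by name.

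Slpi (ENSMUSG00000017002.14, chromosome 2, 164354070 to 164389095, minus strand) was at 4.56 RPKM in WT and at 41.8 RPKM in Tet2-/-. It had the lowest level of the 4 genes in both libraries and the largest difference, with a ratio of 9.17 (6.69 to 12.7) and a log2 difference of 2.94. The interval assumes the shortest coding transcript of 488 bases, on which the values rest on 45 and 409 fragments. With the longest, of 876 bases, they rest on 99 and 925 fragments, and the interval is 7.48 to 11.4. Which of its 3 annotated coding transcripts were present cannot be read from 1 value per gene. By level, Slpi went from rank 1504 of the protein-coding genes in WT to rank 400 in Tet2-/-. Its log2 difference was the second highest of 1774 protein-coding genes past the filter, and 0.712% of all models past the filter had a larger one in size. Of 753 protein-coding genes within 2-fold of its mean level, 9 were higher and 5 lower, Slpi included.

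Relative to the proteases, the inhibitor's transcript was the rarer in both libraries. Its RPKM value was 0.258% of that of Gzmb in WT and 2.10% in Tet2-/-, and 8.12% and 25.6% of that of Mcpt8. The order of the 4 genes, Gzmb, Slc18a2, Mcpt8 and then Slpi, was the same in both libraries. The neighbours in this order were between 3.09-fold and 12.3-fold apart in WT and between 3.01-fold and 4.06-fold apart in Tet2-/-.

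**Figure D3:**
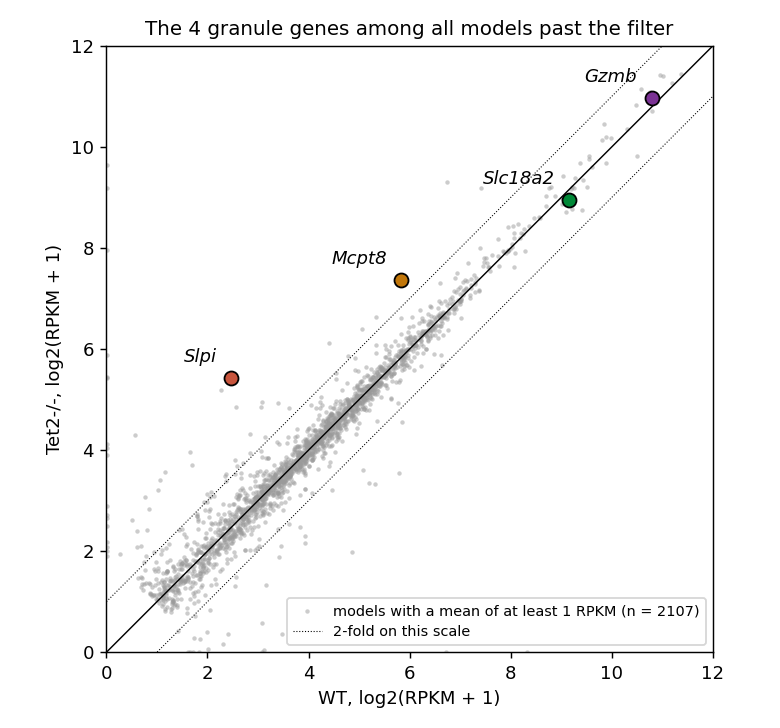
Expression in the Tet2-/- library against the WT library, both as log2(RPKM + 1), for the 2107 models past the filter (grey) and the 4 granule genes (coloured). The solid line marks equal values and the dotted lines 2-fold. Gzmb and Slc18a2 lie close to the solid line at the upper end, and Mcpt8 and Slpi above the upper dotted line.

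Few other protease inhibitor genes could be measured. Of 50 on the list, 11 are in the table and 4 passed the filter, of which Slpi alone was past 2-fold, on the higher side. Over all models past the filter, 2.90% were higher. Slpi was chosen with its value known, so nothing is read from this count. The 3 others had a median log2 difference of 0.33. Cst7 encodes cystatin F, an inhibitor of the cathepsins that activate granule proteases, and stood at 413 RPKM in WT and at 520.4 RPKM in Tet2-/-, with a ratio of 1.26 (1.23 to 1.29). Serpinb6a, a cytosolic serine protease inhibitor gene, had 118 and 169.8 RPKM, a ratio of 1.44 (1.39 to 1.497). Cast, which encodes the calpain inhibitor calpastatin, had 35.2 and 34.9 RPKM with an interval that includes 1. The remaining 7 were below 0.7 RPKM in both libraries. Among these, Serpine2, an inhibitor of thrombin and plasminogen activators, was listed at 0.01 for WT and had 0.684 RPKM in Tet2-/-.

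Slpi lies in a cluster of genes for inhibitors with the same protein fold, the whey acidic protein domain. Of 51 protein-coding genes within 500 kb, 10 are in the table. The cluster members Wfdc6a, Wfdc8 and Wfdc10 and the inhibitor gene Spint4 were listed at 0.01 in both libraries, and Wfdc5 reached 0.0146 RPKM in Tet2-/- only. The seminal vesicle gene Svs5 and Trp53tg5 were also at 0.01 in both. Dbndd2, a dysbindin domain gene, lies 97.0 kb from the longest annotated extent of Slpi and further from its RefSeq start. It had 4.87 RPKM in WT against 12.9 RPKM in Tet2-/-, with a ratio of 2.66 (2.17 to 3.27), and was past 2-fold. Zswim1, with 4.09 and 3.54 RPKM, and Neurl2, with 0.457 and 0.600 RPKM, had intervals that include 1.

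Mcpt8 is used as a basophil marker, Gzmb is made by cytotoxic lymphocytes, and Slpi by macrophages and neutrophils, so markers of those cells are given beside them. On the basophil list of 11 genes, Mcpt8 is the only one in the table, so no separate basophil value exists here. Of 22 cytotoxic lymphocyte markers 5 are listed, summing to 7.67 RPKM in WT and 8.36 RPKM in Tet2-/-, most of it Eomes, a transcription factor gene of natural killer and T cells, at 6.64 and 7.01 RPKM. The T cell receptor constant gene Trac was at 0.01 in both libraries, the T cell kinase gene Zap70 had 0.168 and 0.106 RPKM, and the death ligand gene Fasl had 0.0364 RPKM in WT and was at 0.01 in Tet2-/-. Ncr1, a natural killer cell receptor gene, had 0.811 and 1.23 RPKM with an interval that includes 1. The part of lymphocytes in the level of Gzmb was not tested.

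Macrophage and monocyte markers had higher values in the same library as Slpi and Mcpt8. Of 18 on the list 6 are in the table, all 6 with a higher value in Tet2-/- and an interval above 1, where 28.3% of protein-coding genes past the filter had such an interval. Only 1 of the 6 passed that filter. Their values were at most 0.479 RPKM in WT and 18.8 RPKM in Tet2-/-, and summed to 1.06 and 23.8 RPKM. Ly6c2, a monocyte surface antigen gene, held most of the sum, with 0.479 and 18.8 RPKM. Csf1r, the receptor for macrophage colony stimulating factor, had 0.122 and 1.32 RPKM, and Mrc1, the mannose receptor, 0.0802 and 0.775 RPKM. The complement gene C1qb had 0.105 and 1.51 RPKM and the scavenger receptor gene Msr1 0.200 and 0.944 RPKM. None of the 6 was at 0.01 in either library.

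Of 17 neutrophil and granulocyte precursor markers 3 are in the table, summing to 1.12 and 10.1 RPKM. Ly6g, a neutrophil surface antigen gene, had 1.10 and 9.61 RPKM, the myeloperoxidase gene Mpo was listed at 0.01 in WT and reached 0.458 RPKM in the Tet2-/- library, and the receptor gene Csf3r was at 0.01 in both. Of 9 eosinophil markers 2 are listed, Ear2 with 0.117 and 1.45 RPKM and Il5ra with 0.712 and 0.820 RPKM. The B cell genes Cd79a and Igll1 were at or below 0.147 RPKM. The part of these cells in the differences at Slpi and Mcpt8 was not tested.

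Of 16 lysosomal cathepsin and activator genes 2 are in the table, and both were weak in WT. Ctss, a lysosomal cysteine protease gene of antigen-presenting cells, had 1.03 RPKM in WT against 8.22 RPKM in Tet2-/-, with a ratio of 7.98 (5.64 to 11.4). Ctsh, another lysosomal protease gene, had 0.126 and 1.65 RPKM. Both had intervals above 1, where 28.3% of protein-coding genes past the filter had one. Ctss was past 2-fold on the higher side, where 2.90% of all models past the filter were, while Ctsh did not pass the filter.

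**Figure D4:**
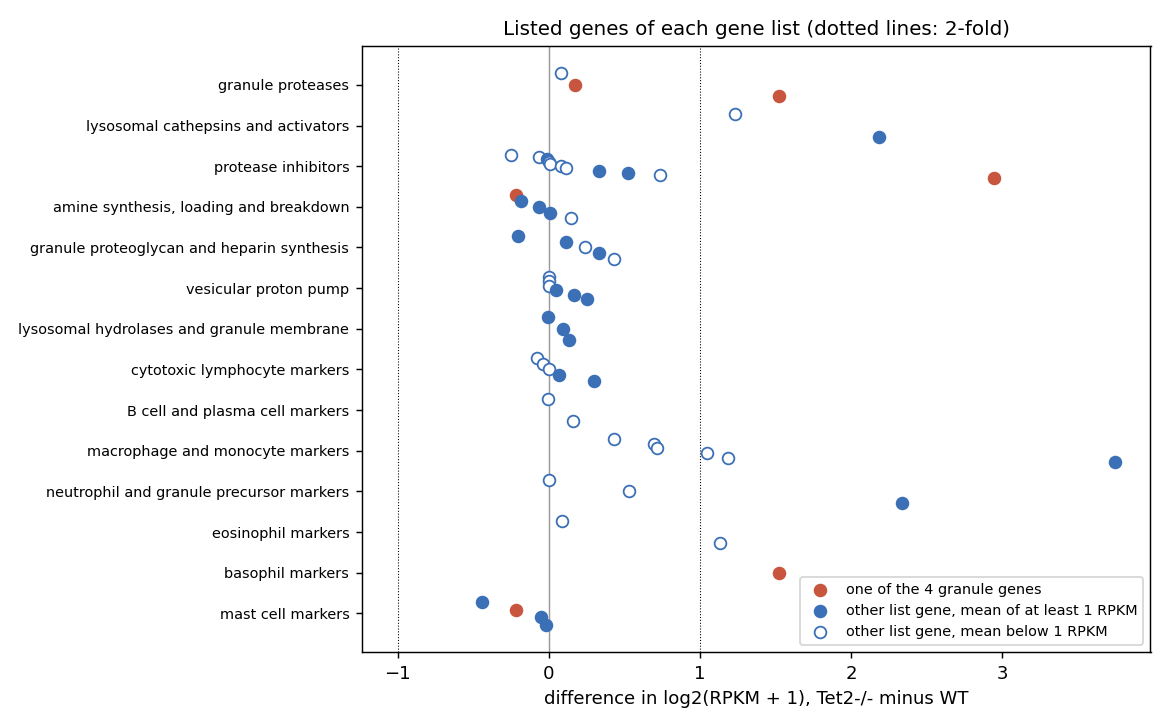
Difference in log2(RPKM + 1), Tet2-/- minus WT, of each gene in the table from 14 lists. Red circles are the 4 granule genes, filled blue circles other genes past the filter of 1 RPKM and open circles genes below it, and dotted lines mark 2-fold. On this scale Slpi, chosen with its value known, has the largest difference of the listed protease inhibitors.

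Last, the protein-coding genes most like each of the 4 in level were found, by the distance between their pairs of log2(RPKM + 1) values over the 2 libraries. Nearest to Gzmb were the cytoskeletal gene Actb (distance 0.09), the ribosomal protein gene Rps15 (0.13) and the cytokine receptor gene Csf2rb2 (0.26). Nearest to Slc18a2 were the RNA-binding protein gene Hnrnpk, the lysosomal membrane protein gene Laptm5 and Fcer1g, at distances from 0.16 to 0.18. Nearest to Mcpt8 were Mfge8 (72.4 and 108.6 RPKM), Slfn2 (55.9 and 96.6 RPKM) and the chaperone gene Dnajb6 (65.5 and 98.6 RPKM), at distances from 0.69 to 0.76. Nearest to Slpi were the mRNA decay factor gene Zfp36 (7.47 and 30.1 RPKM), the osteopontin gene Spp1 (7.35 and 27.8 RPKM) and Glipr2 (9.46 and 29.7 RPKM), at distances from 0.76 to 1.03. Gzmb and Slc18a2 had close counterparts in the table. The nearest genes to Mcpt8 and Slpi had smaller ratios, at most 1.73 around Mcpt8 and at most 4.03 around Slpi. The distances use the same values that were known when the 4 genes were chosen. Genes with a large difference have few others near them, so nothing is read from this contrast.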

How the data were processed

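The authors deposited 1 table of RPKM values with a column for each library, per the file headers. Per the submitters' processing notes the build was mm10. Which aligner and counting program made the values is not given in the sources used here. The value 0.01, in 58.1% of WT models and 57.4% of those in Tet2-/-, was taken to stand for no reads, although 67 and 80 models lie below it. Only 17.1% of annotated protein-coding genes are in the table. No count test or p-value was used, since there was 1 library per genotype. Depth was inferred from 335 and 367 low-valued genes with 1 annotated transcript (GENCODE M21), of which 95.5% and 95.4% came within 0.1 of a whole fragment. These shares are the largest over all depths and fragment lengths tried on these genes. Chance gives about 20% at a setting fixed beforehand, and more for the best of many. Mean fragment lengths of 170 and 180 bases fitted best. No interval was made for transcripts under 400 bases or at 0.01. The script was tested on simulated data with 2107 genes, where all 72 genes changed 3-fold, all 62 changed 4-fold, 0 of 66 changed 1.5-fold and 0 of 1907 unchanged were called.

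The 4 genes and the 14 lists (307 distinct genes) were chosen with earlier results of these data known. Named are the 4 genes, list genes past the filter of 1 RPKM (markers of other cells also below it), the 3 nearest genes in level and coding genes within 500 kb, without predicted, pseudogene or sex-linked models. Maob and Atp6ap2 (chromosome X) and Slc25a11 and the weak genes Hnmt, Ctsh, Serpine2, Sulf2 and Chst13 fall outside this rule and were named after their values were seen. The single values of 1 list gene are not reported here. Alternatives were other pseudocounts, filters, fold thresholds, transcript lengths and a median-ratio scaling. The software was scipy 1.17.1, numpy 2.4.6, matplotlib 3.10.9 and pandas 2.3.3 under Python 3.11.15.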

Additional observations from a re-analysis of the deposited data

How the results depend on the processing

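The log2 differences of Mcpt8, Gzmb and Slc18a2 moved by less than their counting intervals under pseudocounts of 0.1 and 5 and under median-ratio scaling, whose factors differ by 0.0083 on the log2 scale. That of Slpi was 2.29 with a pseudocount of 5 against 2.94. No direction of the 4 genes changed, but a pseudocount cannot change a sign. The counts of 61 models higher and 34 lower became 33 and 14 when the pseudocount was 5, 40 and 16 under the filter of 5 RPKM, 123 and 76 at 1.5-fold and 27 and 10 at 4-fold, fewer or more by construction. Of 59 alternative list medians over 12 lists, 50 stayed within 1.5-fold and 9 moved. The granule protease median was 0.17 with no filter. With pseudocounts of 0.1 and 5, the cathepsin median was 2.88 and 1.13, the macrophage median 5.03 and 2.12 and the neutrophil median 3.02 and 1.26. With no filter the macrophage and neutrophil medians were 0.88 and 0.53. These lists each rest on 1 or 2 genes past the filter. Those of the granule protease list, Mcpt8 and Gzmb, and of the basophil list, Mcpt8 alone, were chosen with their values known. The proteoglycan median of 0.11 was -0.05 under the filter of 5 RPKM, so it has no stable sign. No paired analysis was possible because there is a single library of each genotype, and leaving 1 out would end the comparison. TMM scaling was not run because the table holds no counts. Weak markers rest on few fragments in WT, also above 0.1 RPKM, so they have wide intervals. By estimate Ly6c2 rests on 5 fragments in WT, C1qb on 3, Ear2 on 2 and Mrc1 on 13. The interval of the ratio was 18.0 to 133 for Ly6c2 and 3.08 to 108 for Ear2.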

Other observations

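Genes of the granule matrix and of granule acidification were measured in small part. Of 36 genes of granule proteoglycan and heparin synthesis 5 are in the table and 3 passed the filter, with 0 past 2-fold, near the share over all models (2.90% higher and 1.61% lower), and a median log2 difference of 0.11. Ndst2, the sulfotransferase gene that mast cells need to make heparin, to which granule proteases bind, stood at 228 RPKM in WT and at 246 RPKM in Tet2-/-, with a ratio of 1.08 (1.06 to 1.10). Hs2st1, a heparan sulfate sulfotransferase gene, had 10.8 and 9.22 RPKM, a ratio of 0.854 (0.800 to 0.911), and B3galt6, which builds the linker between core protein and sugar chain, 3.63 and 4.82 RPKM, a ratio of 1.33 (1.15 to 1.53). Weaker were Sulf2, with 0.569 and 0.852 RPKM, and Chst13, listed at 0.01 in WT and at 0.361 RPKM in Tet2-/-.

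Of 25 genes of the vesicular proton pump, which provides the gradient that amine loading uses, 6 are in the table and 3 passed the filter. Of these 3, 0 were past 2-fold, near the share over all models (2.90% higher and 1.61% lower). Their median log2 difference was 0.17. Atp6ap2 had 39.7 and 47.4 RPKM, Atp6v1c1 34.0 and 35.2 RPKM, and Tcirg1 21.3 and 24.0 RPKM. Of 34 lysosomal hydrolase, sorting and granule membrane genes 3 are in the table, the arylsulfatase gene Arsa with 15.4 and 17.0 RPKM, the sphingomyelinase gene Smpd1 with 28.6 and 30.6 RPKM, and Gnptab, which makes the mannose 6-phosphate tag for sorting, with 66.2 and 65.8 RPKM. None was past 2-fold, again near the share over all models, and their median log2 difference was 0.10.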
